A study of Mus musculus with 18 samples.

Results

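Tumours of mice without Macrod2 were compared with tumours of mice with both copies, after intestinal tumours with high Gata4 had been left out. The comparison held 10 of the 18 tumours of the series, 6 homozygous for the loss (hom) and 4 wild type (wt). Each came from a separately numbered male mouse of strain C57BL/6, and every animal, controls included, carried the Min allele of Apc. By the labels the hom mice were ApcMin/+/Macrod2-/- and the wt mice ApcMin/+/Macrod2+/+, and all 10 tumours were epithelial tumours of the large intestine. The sources used here do not give the age of the mice, or which part of Macrod2 was removed. Nothing in them says that each tumour is one clone, and a resected tumour also holds stroma and immune cells. In such bulk samples fewer cells of a type and less RNA per cell cannot be told apart.

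The members were chosen by Gata4, a transcription factor of the proximal small intestine, at a limit of 100 CPM (read counts scaled to a common library total). This left out wt 1 at 166 CPM and wt 2 at 153 CPM, the wt tumour just outside the limit. No hom tumour lay above it, and hom 3, at 46.1 CPM, lay just inside. The kept wt tumours held 10.9 CPM (wt 3), 3.03 CPM (wt 4), 30.7 CPM (wt 5) and 0.290 CPM (wt 6). Hom 1 to hom 6 held 22.3, 17.6, 46.1, 36.4, 2.75 and 43.6 CPM. Gata4 chose the members, so these levels are a description.

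MACROD2 is a macrodomain enzyme that removes single ADP-ribose units from proteins. PARP enzymes add these units, many of them at sites of DNA damage, where PARP1 builds long chains that recruit the repair machinery. The MACROD2 gene lies at a fragile site that is often deleted in human colorectal cancer. In the Min mouse one inherited truncated copy of Apc leads to adenomas once the other copy is lost, because beta-catenin is then no longer degraded. By its title, the study asks how loss of Macrod2 bears on tumour growth and on the stability of chromosomes.

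**Figure D1:**
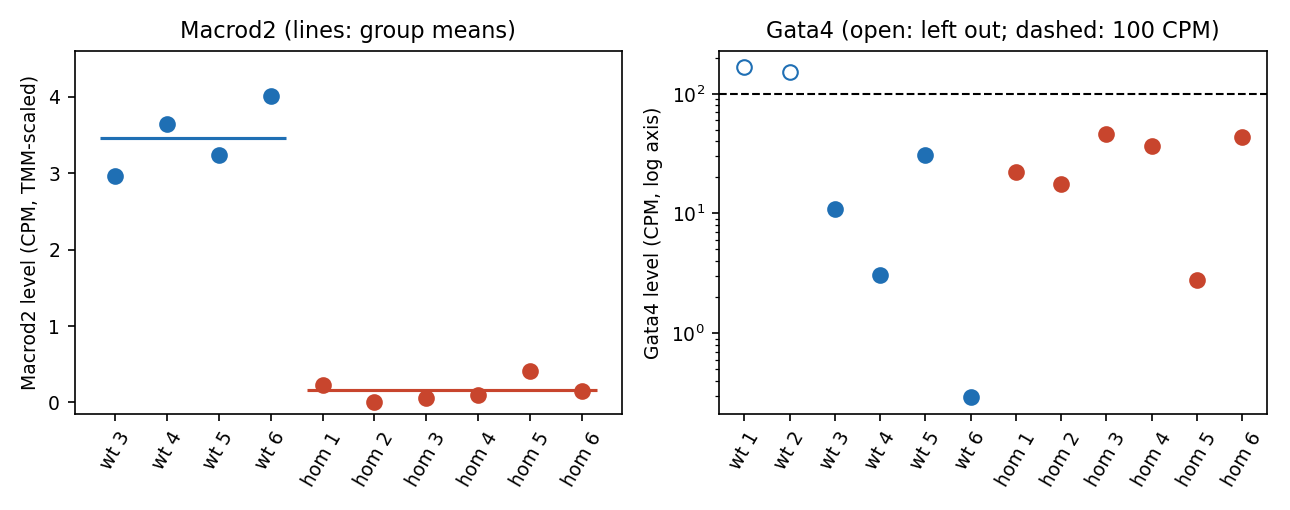
Left, Macrod2 level in CPM for each kept tumour, with a line at each group mean: the 4 wt tumours sit between 2.96 and 4.01 CPM and the 6 hom tumours at or below 0.409 CPM. Right, Gata4 level on a log axis, with the 2 left-out wt tumours open and above the dashed limit of 100 CPM.

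Macrod2, on chromosome 2 from 140395309 to 142392966 (mm10, + strand), followed the labels in every tumour. The wt tumours had 32, 49, 59 and 71 counts, and hom 1 to hom 6 had 5, 0, 1, 2, 8 and 3 counts. The groups did not overlap. In CPM scaled by TMM factors (used for all gene levels from here on), the level was 3.46 ± 0.459 in wt (SD, n = 4) and 0.158 ± 0.147 in hom (SD, n = 6). An exact two-sided permutation test gave p = 0.00952, the smallest that 6 against 4 allows. The count of 0 in hom 2 allows up to 0.19 CPM, for counting error only. In the fit over all genes the log2 fold change was -4.34 (SE 0.46, edgeR adjusted p = 0.0015).

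The labelled site was checked against genes of the distal colon. The summed counts of 8 posterior Hox genes ran from 0 to 7 in the wt tumours and from 0 to 11 in the hom tumours, so these markers were near 0 in both groups. Genes of the small intestinal epithelium also remained unequal among the kept tumours. Their score, the mean log2 level of a list against the mean of the 15 tumours fitted, was 0.33 in wt 3, -2.71 in wt 4, -1.41 in wt 5 and -1.26 in wt 6. In hom 1 to hom 6 it was 0.83, -0.33, 1.20, 0.66, -0.09 and 1.63. The leading gene, Fabp1, the liver-type fatty acid binding protein of proximal enterocytes, was at 16.55, 1.94, 6.43 and 2.82 CPM in wt 3 to wt 6. It was at 5.62 to 356 CPM in hom, with a median of 69.8. The groups overlapped, and the left-out wt 1 and wt 2 held 2528 and 1707 CPM. The Gata4 rule removed the tumours with the highest scores (1.95 and 1.86) and did not level this list: its median log2 fold change was 1.54 over 24 genes, 2.63 without wt 3 and -0.22 with all 6 wt tumours. Of the 24, 19 are enterocyte genes (median 1.92) and 5 are regional factors (median 0.25). The list is given without a test because the rule used Gata4.

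Total counts ran from 13529204 to 20857918 in the 10 tumours, and 16207 to 17113 genes had a count. One library stood apart. In wt 3, 27.0% of all counts fell on Rn45s, the precursor of ribosomal RNA, against 0.118% to 0.725% in the others. Rpph1, the RNA of ribonuclease P, reached 290 CPM in wt 3, while no other compared tumour exceeded 3.22 CPM. The median log2 fold change of the 31 tested replication-dependent histone genes, whose messages lack a polyA tail, was -0.89, and -0.41 without wt 3; the gene with the smallest p, Hist1h3d, was at 3.605 CPM in wt 3 and 0.893 to 1.24 CPM in the other wt tumours. Below, genes that pass without wt 3 are named as such. Other genes named in the comparison did not pass in that fit either, apart from Macrod2, and from Fabp1 and Gip, which are described without a test.

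Macrod2 was the only gene that passed in edgeR's fit of all these tumours. Of 14392 genes tested with edgeR's quasi-likelihood test, 0 were called higher in hom (0.0%) and 1 lower, Macrod2 (0.00695%), at an adjusted p under 0.05. At an unadjusted p under 0.05 there were 1667 higher genes (11.6%) and 1868 lower genes (13.0%), 3535 in all (24.6%). The next smallest adjusted p was 0.118, and 1884 genes lay between 0.05 and 0.15. DESeq2 called 441 genes higher (3.06%) and 341 lower (2.37%), and limma-voom called 1. Of the 121 other genes named in the comparison DESeq2 called 74. Without wt 3, edgeR called 728 of 14561 genes higher (5.0%) and 554 lower (3.8%), 1282 in all (8.8%). Of the 121 named genes 65 passed in that fit, at edgeR adjusted p-values between 0.0337 and 0.0488. That count depended on the other tumours too. It became 1 or 2 when hom 1, hom 3, hom 4, hom 5, hom 6, wt 4 or wt 5 was also left out, 3400 without hom 2, and 2086 without wt 6. With wt 1 and wt 2 kept and wt 3 left out it was 1.

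**Figure D2:**
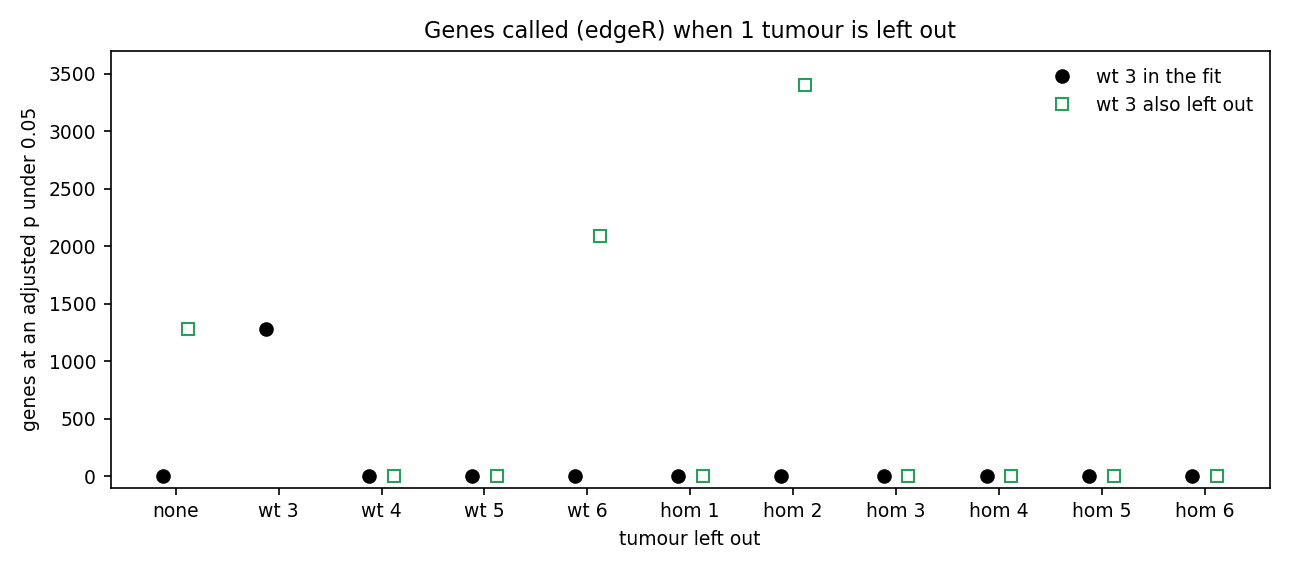
Genes at an edgeR adjusted p under 0.05 (vertical axis) when the tumour named on the horizontal axis is left out, with wt 3 in the fit (filled circles) or also left out (open squares). With wt 3 in the fit every point but that of wt 3 itself lies between 1 and 4; with it out, the points reach 1282, 2086 and 3400 or stay at 1 or 2.

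A gene is called not overlapping where all 6 hom tumours lay on one side of all 4 wt tumours. This held for 306 genes higher in hom (2.13% of those tested) and 435 lower (3.02%). The signs of the estimates were even, with 50.6% higher and 49.4% lower, and the median log2 fold change over all genes was 0.01. The counts and medians of gene lists below are read beside these shares. Of the 45 lists with a score, 41 overlapped between the groups; hom lay below wt in 2 (cytosolic heat shock proteins, and the unfolded protein response and ER folding) and above it in 2 (BMP signalling and endothelium).

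**Figure D3:**
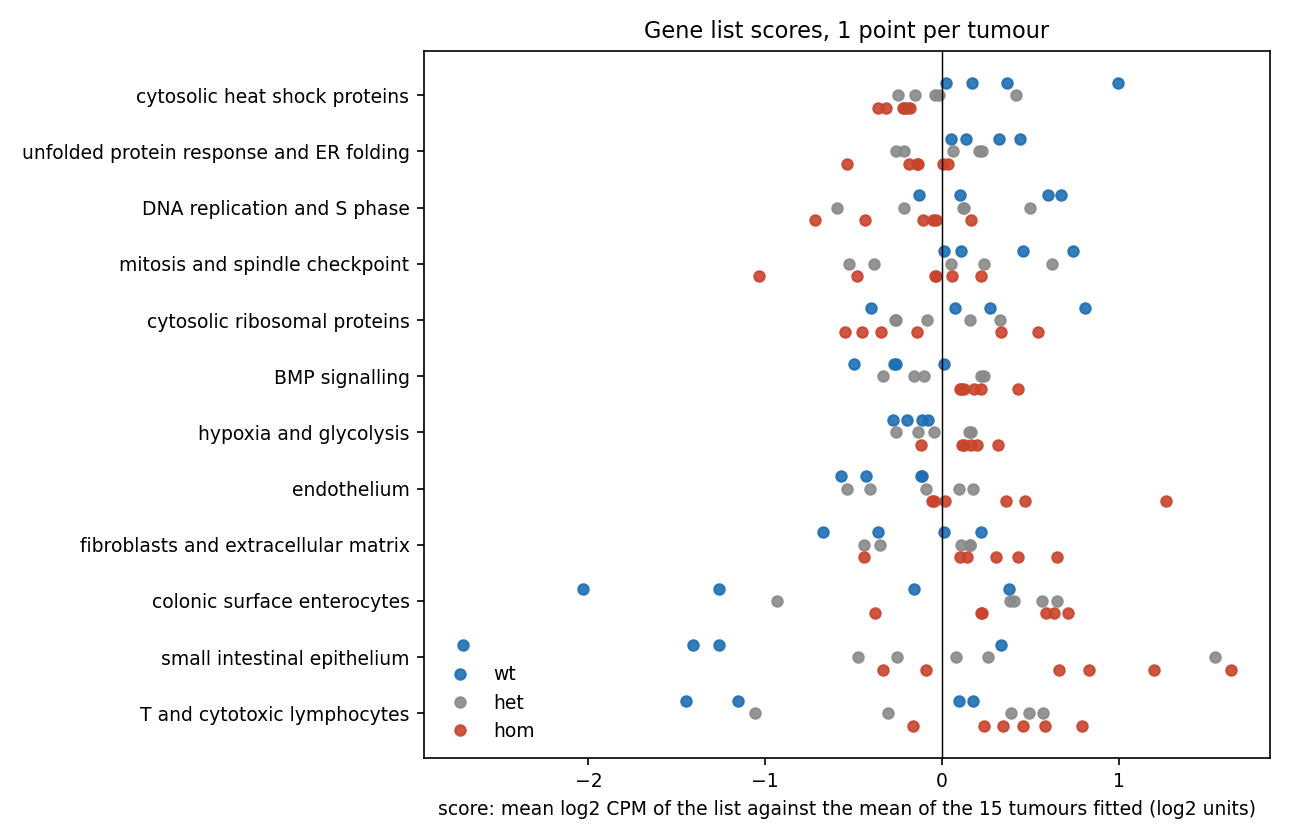
Score of 12 gene lists on the horizontal axis, 1 point per tumour, for wt, het (1 copy lost) and hom. The hom tumours lie below the wt tumours for cytosolic heat shock proteins and for ER folding and above them for BMP signalling and endothelium; the other 8 lists overlap, with wt 4 and wt 5 as the lowest points of the colonic surface and T cell rows.

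Genes of cytosolic heat shock proteins had lower estimates in hom tumours than in the kept wt tumours, with none past the threshold. Chaperones of the cytosol fold and refold its proteins, and their genes are switched on by heat shock factors that bind heat shock elements. The list also holds the mitochondrial chaperonin genes Hspd1 and Hspe1. Of 23 tested members 21 had lower estimates and 2 higher, with a median log2 fold change of -0.73 against 0.01 over all genes. In 8 the groups did not overlap, all of them lower. DESeq2 called 12 of the 23 lower. Without wt 3 the edgeR median was -0.88 and 13 were called lower (3.8% of all genes were). Hsph1, a co-chaperone that exchanges the nucleotide of Hsp70, gave the smallest p of the list. Its level was 127, 394, 213 and 169 CPM in wt 3 to wt 6 and 79.0, 40.5, 20.9, 60.4, 44.2 and 42.4 CPM in hom 1 to hom 6. No hom tumour reached the lowest wt tumour. The log2 fold change was -2.22 (SE 0.47, edgeR adjusted p = 0.122), and -2.40 without wt 3 (adjusted p = 0.0339). The left-out wt 1, at 63.9 CPM, fell inside the hom range and wt 2, at 160 CPM, did not.

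The cytosolic Hsp90 gene Hsp90aa1 was at 246, 721, 458 and 349 CPM in wt and in hom it ran from 174 to 221.5 CPM (log2 fold change -1.14, SE 0.24). Its co-chaperones Stip1 (-0.94) and Ahsa1 (-0.86), which hand over clients to Hsp90 and speed its ATPase, showed no overlap either. The same was true of the constitutive Hsp70 gene Hspa8 (-0.86), the Hsp40 gene Dnaja1 (-0.81) and Chordc1 (-0.998), another Hsp90 partner. The mitochondrial chaperonin pair Hspd1 (-0.83) and Hspe1 (-1.07) overlapped between the groups, as did Hsf1 (-0.64), the heat shock factor itself. Without wt 3 these 9 genes passed, at edgeR adjusted p-values of 0.0337 to 0.0453. One tumour, wt 4, was the highest for each of these genes. The heat-inducible Hspa1a showed this most: 60.3 CPM in wt 4, against 6.32 to 9.235 CPM in the other wt tumours and 3.73 to 8.58 CPM in hom. Without wt 4 the median of the list was -0.42, and its score of 0.99 in that tumour compared with 0.02 to 0.37 in the other kept wt tumours and -0.36 to -0.18 in hom. The left-out wt 1 had a score of -0.30, inside the hom range, and wt 2 one of 0.06.

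Genes of protein folding in the endoplasmic reticulum had lower estimates as well. The unfolded protein response senses unfolded proteins there and, through ATF6 and XBP1, drives chaperone genes whose promoters hold an ER stress response element. Of 35 tested genes 26 had lower and 9 higher estimates, with a median of -0.43. The groups did not overlap in 13, all lower in hom, and without wt 3, 13 of 35 were called lower. DESeq2 called 12 lower with wt 3 in the fit. The median was -0.43 with all 6 wt tumours and -0.42 without wt 3. The score was 0.047 to 0.44 in wt and -0.54 to 0.034 in hom, so the groups lay close together. The left-out wt 1, at -0.03, fell inside the hom range and wt 2, at 0.42, did not. Among the 11 chaperones 10 had lower estimates (median -0.84) and 7 did not overlap. The 7 genes of translocation into the ER were all lower (median -0.56, and -0.32 without wt 4), and Spcs2, a signal peptidase subunit, had the smallest p of the list (-0.63, SE 0.13, edgeR adjusted p = 0.122; 0.0337 without wt 3). The 4 sensors and regulators ran the other way, with 3 higher and a median of 0.27 (0.15 without wt 4).

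Hspa5, the Hsp70 of the endoplasmic reticulum known as BiP, was at 1221, 2298, 1390 and 1516 CPM in wt 3 to wt 6. In hom 1 to hom 6 it was at 1043, 780, 499, 776, 969 and 925 CPM. The groups did not overlap, and the log2 fold change was -0.93 (SE 0.26, edgeR adjusted p = 0.122; 0.0413 without wt 3). Of the left-out tumours, wt 1, at 952 CPM, fell inside the hom range and wt 2, at 1529 CPM, did not. Creld2, a folding factor secreted in ER stress, was at 72.9, 216, 109 and 124.5 CPM in wt and 37.2 to 63.55 CPM in hom. Its log2 fold change was -1.22 (SE 0.28), and wt 1, at 68.9 CPM, also lay above all hom tumours. Manf (-1.04), which is secreted in ER stress, overlapped by one tumour: hom 2, at 206 CPM, lay just above wt 3 at 205.9 CPM. The disulfide isomerases Pdia4 (-0.99) and Pdia6 (-0.85), the ER Hsp90 gene Hsp90b1 (-0.95) and the lectin chaperones Calr (-0.66) and Canx (-0.42) did not overlap. Xbp1 itself (-0.31) did. Without wt 3 Creld2, Manf, Pdia4, Pdia6, Hsp90b1 and Calr passed, at edgeR adjusted p-values of 0.0337 to 0.04. Chac1, a glutathione-degrading enzyme induced by ATF4, was higher in each hom tumour (1.77 to 8.40 CPM) than in the wt tumours (1.04 to 1.64 CPM). Its list, the ATF4 integrated stress response, had 12 estimates in each direction among 24 genes, Chac1 included, and a median near 0 (-0.18 with all 6 wt tumours).

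**Figure D4:**
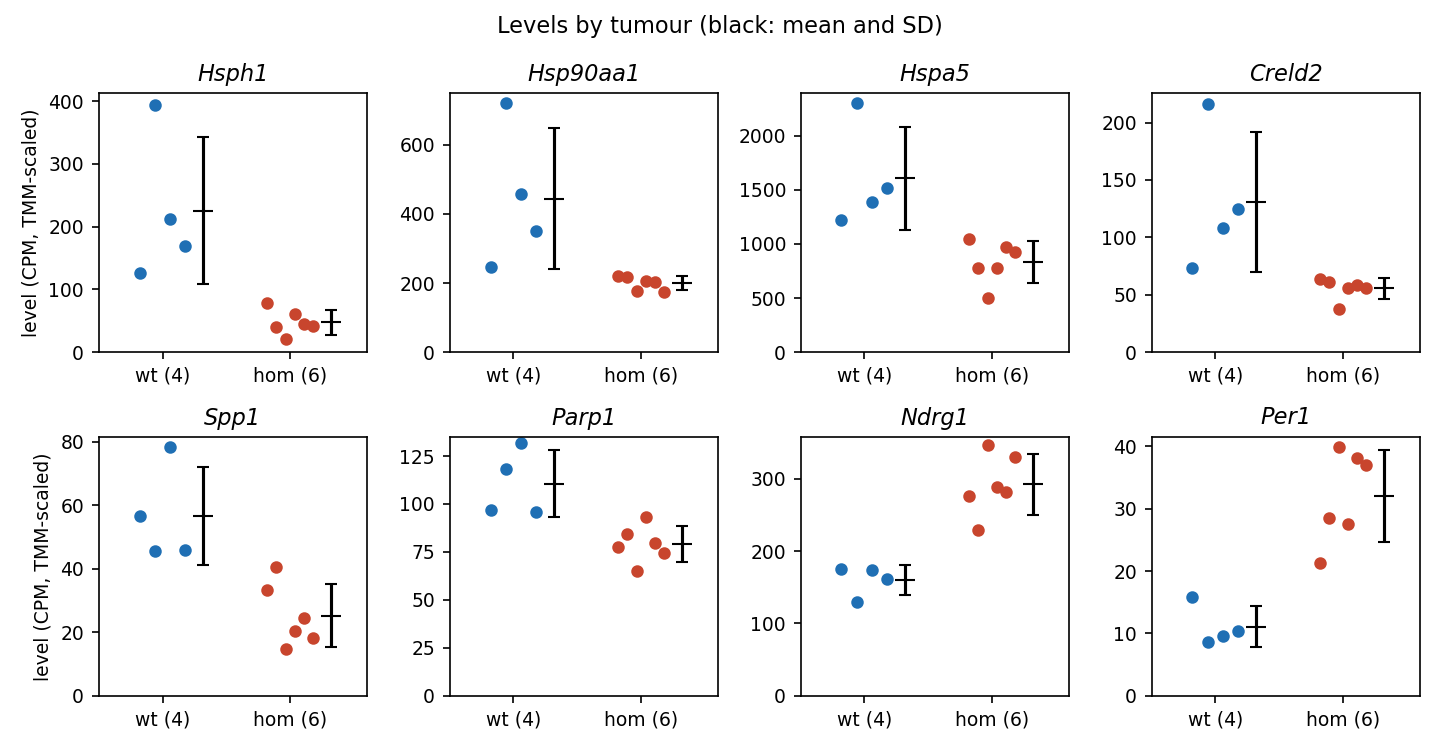
Level in CPM of 8 genes in the 4 wt tumours (left of each panel) and the 6 hom tumours (right), with the mean and SD in black. In each panel the groups do not overlap; wt 4 gives the highest point of Hsph1, Hsp90aa1, Hspa5 and Creld2.

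The promoters of these genes were searched for the elements named above, because most estimates of both lists were lower. The RefSeq windows (GRCm38.p6) run from 250 bases before to 50 bases after each start. The ER stress element was searched on both strands as CCAAT, 9 bases of any kind and CCACG. It lay in 0.119% of all 32851 promoters, counted per window. The list holds genes of the response that this element serves, so a higher share was built into it and is no result of these data. Counted per gene, the element lay in 20 of the 11154 tested genes with a promoter. It lay in 9 of the 27 tested ER folding genes that have one (33.3%). The 9 genes had a median log2 fold change of -0.66, with 9 of 9 lower. The 18 without the letters had a median of -0.31, with 11 lower. The groups did not overlap in 6 of the 9 and in 6 of the 18. Outside the list 11 tested genes held the element, with a median of -0.13 and 6 lower. The matches are shown because the spacer differs in each while the ends are fixed (capitals); they are read on the strand that carries the motif.
Hspa5: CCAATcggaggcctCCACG
Hsp90b1, first: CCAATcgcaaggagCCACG
Hsp90b1, second: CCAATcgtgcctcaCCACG
Calr: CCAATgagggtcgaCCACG
Canx: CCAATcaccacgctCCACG
Dnajc3: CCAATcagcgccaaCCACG
Creld2: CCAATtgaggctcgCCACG
Pdia6: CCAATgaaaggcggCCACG
Syvn1: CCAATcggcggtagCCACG
Derl3: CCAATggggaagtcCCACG
In this set Dnajc3 (-0.34), an inhibitor of the kinase PERK, overlapped between the groups. So did Syvn1 (-0.24) and Derl3 (-0.54), which act in ER-associated degradation, while the other 6 genes did not.

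The heat shock element was searched on both strands as GAA, TTC and GAA with 2 bases of any kind between them, and matches were allowed to overlap. It lay in 0.603% of all promoters, counted per window. Here too a higher share was built into the list. Counted per gene, the element lay in 63 of the 11154 tested genes with a window, and in 4 of the 19 heat shock genes with one (21.1%). These 4 are Hsph1, Chordc1 and the pair Hspd1 and Hspe1, which share one stretch of promoter and its 2 matches. The median log2 fold change was -1.03 for the 4 and -0.50 for the other 15. All 4 had lower estimates, as did 13 of the 15. The groups did not overlap in 2 of the 4 and in 4 of the 15. The 59 other tested genes with the letters had a median of -0.13, with 38 lower. A match of letters is a description and not a measured site. For each element 2 windows are printed in full, of genes whose groups did not overlap, with the motif in capitals; in Chordc1 3 matches overlap, so that GAA and TTC alternate across the start.
Creld2, chr15:88819396-88819695, + strand: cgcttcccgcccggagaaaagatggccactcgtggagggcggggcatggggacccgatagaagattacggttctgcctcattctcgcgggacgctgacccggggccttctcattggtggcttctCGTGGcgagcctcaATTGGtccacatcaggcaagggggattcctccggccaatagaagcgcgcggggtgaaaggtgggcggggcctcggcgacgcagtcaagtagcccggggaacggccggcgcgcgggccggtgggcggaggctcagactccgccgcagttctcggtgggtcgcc
Hspa5, chr2:34771840-34772139, + strand: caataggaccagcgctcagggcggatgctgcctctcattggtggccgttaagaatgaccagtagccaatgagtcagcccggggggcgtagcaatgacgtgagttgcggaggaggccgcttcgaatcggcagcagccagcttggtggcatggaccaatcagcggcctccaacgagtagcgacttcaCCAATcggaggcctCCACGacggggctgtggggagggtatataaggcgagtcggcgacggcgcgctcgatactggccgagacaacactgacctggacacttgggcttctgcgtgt
Hsph1, chr5:149636266-149636565, - strand: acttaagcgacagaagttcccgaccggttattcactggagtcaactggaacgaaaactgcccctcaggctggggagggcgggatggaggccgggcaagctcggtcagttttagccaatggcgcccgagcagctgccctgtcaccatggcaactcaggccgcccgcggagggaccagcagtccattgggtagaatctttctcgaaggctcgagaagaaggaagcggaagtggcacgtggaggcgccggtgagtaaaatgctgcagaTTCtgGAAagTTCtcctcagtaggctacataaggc
Chordc1, chr9:18292017-18292316, + strand: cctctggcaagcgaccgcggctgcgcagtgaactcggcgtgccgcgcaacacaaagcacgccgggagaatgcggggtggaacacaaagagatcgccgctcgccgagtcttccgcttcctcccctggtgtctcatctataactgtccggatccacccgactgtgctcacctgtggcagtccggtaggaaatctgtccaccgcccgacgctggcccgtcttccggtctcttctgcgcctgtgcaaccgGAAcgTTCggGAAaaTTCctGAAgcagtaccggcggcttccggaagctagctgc

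The cycle of ADP-ribosylation around Macrod2 was divided. Of 22 tested genes for PARPs and for enzymes that remove ADP-ribose, 12 had higher and 10 lower estimates, with a median of 0.01. Of the 7 erasers, Macrod2 included, 2 had higher and 5 lower estimates. Of these, 2 were lower at an unadjusted edgeR p under 0.05 (13.0% of all genes were). Macrod1, the mitochondrial relative of Macrod2, had 0.51 (SE 0.28), and Parg, which cuts ADP-ribose chains, had -0.09. Parp1, the main writer at DNA breaks, was at 96.8, 118, 132 and 95.8 CPM in wt and 64.8 to 93.35 CPM in hom. The groups did not overlap among the kept tumours, and the log2 fold change was -0.47 (SE 0.13, edgeR adjusted p = 0.122; 0.0432 without wt 3). The left-out wt 1 and wt 2, at 73.7 and 72.8 CPM, lay inside the hom range. Parp2, the second damage-induced writer, overlapped (-0.44, SE 0.15). Parp16, an ER-membrane PARP that adds single units, ran the other way, at 10.6 to 13.1 CPM in wt and 13.45 to 22.8 CPM in hom (0.59, SE 0.18).

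Single-strand break and base excision repair genes, which act on breaks that PARP1 marks, had 14 lower and 6 higher estimates among 20 tested, with a median of -0.27 (-0.17 with all 6 wt tumours). In 2 the groups did not overlap, both lower. Tdp1, which frees trapped topoisomerase from DNA ends, was at 20.1, 32.4, 27.9 and 19.2 CPM in wt and 11.4 to 17.7 CPM in hom. Its log2 fold change was -0.77 (SE 0.21, edgeR adjusted p = 0.122; 0.04 without wt 3). The other non-overlapping gene was Lig3 (-0.25), the ligase of this pathway. The scaffold Xrcc1 and the polymerase Polb, with -0.51 each, overlapped by a few CPM and were called lower without wt 3. All 24 tested genes of end joining and damage signalling had lower estimates (median -0.27). They included Trp53bp1 (-0.33, SE 0.08), which guides breaks to end joining, with no overlap, and the Ku subunit gene Xrcc6 (-0.64). For Trp53bp1 the left-out wt 1 and wt 2, at 38.2 and 26.3 CPM, lay below every hom tumour (41.0 to 50.1 CPM), and the log2 fold change with all 6 wt tumours was -0.14. Of 33 genes of homologous recombination and the Fanconi anaemia pathway 31 were lower (median -0.39, and -0.25 with all 6 wt tumours). Nbn, of the break-sensing complex with Mre11 and Rad50, was at 27.1 to 41.9 CPM in wt and 22.9 to 26.0 CPM in hom, and Rad51c (-1.23) did not overlap either. Without wt 3 Trp53bp1 (0.0483), Xrcc6 (0.0339) and Nbn (0.0396) passed by edgeR adjusted p.

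Genes of DNA replication and mitosis had lower estimates throughout, without separating the groups. All 49 tested replication and S phase genes were lower (median -0.49), with 3 not overlapping, as were all 53 mitosis and spindle checkpoint genes (median -0.52), with 4 not overlapping. Of the CIN25 genes, a published expression signature of chromosome instability, 24 of 25 were lower (median -0.51). Pold3, a subunit of replicative polymerase delta, had the smallest p of the replication list, at 111, 195, 188 and 151 CPM in wt and 57.1 to 108 CPM in hom (-0.82, SE 0.19; edgeR adjusted p = 0.0337 without wt 3). Mki67, a marker of cycling cells, was at 267, 417, 422 and 303 CPM in wt 3 to wt 6 and at 110 to 315 CPM in hom, so the groups overlapped (-0.64, SE 0.27). The helicase subunit Mcm2 (-0.56) did not overlap, whereas Top2a (-0.52), the kinase Aurka (-0.71), the checkpoint gene Mad2l1 (-0.69) and the securin Pttg1 (-0.54, and -0.34 with all 6 wt tumours) did. Pttg1 passed without wt 3 (edgeR adjusted p = 0.0364). The mitosis scores were 0.01, 0.46, 0.74 and 0.10 in wt 3 to wt 6 and -0.04, 0.22, -1.03, 0.06, -0.04 and -0.48 in hom. The low end came from hom 3 and hom 6 and the high end from wt 4 and wt 5. These are also the wt tumours with the lowest scores of colonic surface enterocytes, -2.03 and -1.26, against -0.16 to 0.38 in the other wt tumours and -0.38 to 0.71 in hom. The part of cell makeup in these differences was not tested.

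Of 22 p53 targets and regulators 14 were higher and 8 lower (median 0.08), so the list did not go one way. Cdkn1a, the cell cycle inhibitor p21, was at 183.5, 149, 130 and 170 CPM in wt, and the hom tumours began at 183.8 CPM and reached 320 CPM, without overlap (0.62, SE 0.17). Pmaip1, the pro-death gene Noxa, was at 53.1 CPM in wt 3 and 26.6 to 28.6 CPM in the other wt tumours, against 44.6 to 95.4 CPM in hom (0.94). Phlda3 (-0.74), a target that restrains AKT, had the smallest p of the list, and its estimate, like that of Trp53 itself (-0.42), was negative. These 3 targets passed without wt 3, at edgeR adjusted p-values of 0.0339 to 0.04. Cdkn1a was at 251.5 and 265.5 CPM in the left-out wt 1 and wt 2, inside the hom range. Against all 6 wt tumours the log2 fold change was 0.29 for Cdkn1a and 0.19 for Pmaip1.

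Chromosome imbalance was described from RNA levels alone. It was the SD over 19 autosomes of each tumour's median log2 level relative to the mean of the groups, from 11975 genes. The values were 0.0218, 0.0549, 0.0157 and 0.0141 in wt 3 to wt 6 and 0.0459, 0.0354, 0.0266, 0.00755, 0.0293 and 0.0401 in hom. The groups overlapped over most of their range, at 0.0308 ± 0.0134 in hom (SD, n = 6) and 0.0266 ± 0.0191 in wt (SD, n = 4; exact two-sided permutation p = 0.705). Without wt 4 the difference was 0.0133 and the exact permutation p was 0.0952. Of the 19 autosomes, chromosome 2, which carries Macrod2, had the smallest p: -0.0089 in hom and 0.0054 in wt (exact permutation p = 0.0286, adjusted p = 0.543). Chromosome 18, which carries Apc, spread most, from -0.145 in wt 4 to 0.112 in hom 6 (exact permutation p = 0.133). Such medians average over all cells of a tumour, and they are RNA levels and not DNA copy numbers. They were not corrected for gene length. The mean log2 gene length of the counts, Rn45s left out, ran from 11.2 in wt 4 to 11.5 in wt 3. The part of such library differences in the spread was not tested.

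Genes near Macrod2 were followed because a deletion can touch its neighbours. Of 11 tested genes beside the locus 7 were higher and 4 lower (median 0.27), and the median was 0.02 with all 6 wt tumours. Among them were Flrt3, an adhesion gene nested inside Macrod2 (0.42, SE 0.25), and Bfsp1 (0.53, SE 0.19), with 0.14 and 0.29 against all 6 wt tumours. None passed.

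Genes that serve growth had lower estimates as lists and few that separated. All 26 ribosome biogenesis genes were lower (median -0.40, and -0.26 without wt 4), with Rrs1 the gene of smallest p (-0.56), as were 71 of 72 cytosolic ribosomal proteins (median -0.30; Rpl31, -0.56). For the ribosomal proteins the median was -0.05 without wt 4, whose score of 0.81 was the highest of all tumours fitted. Of 84 genes of oxidative phosphorylation 81 were lower (median -0.27), and the median was -0.085 without wt 4. With offsets for gene length the medians were -0.069 for ribosomal proteins and -0.036 for oxidative phosphorylation. Timmdc1, which helps to assemble complex I of the respiratory chain, was at 26.5 to 39.9 CPM in wt and 16.0 to 24.4 CPM in hom (-0.67, SE 0.15; edgeR adjusted p = 0.0337 without wt 3). Of 31 proteasome subunits 30 were lower (median -0.22, -0.077 without wt 4 and -0.10 with length offsets; Psmd7, -0.29), and none of them separated the groups (3.02% of all genes did, downwards).

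Wnt signalling, the pathway that Apc restrains, showed no shared direction. Of 27 Wnt targets 13 were higher and 14 lower (median -0.03, 0.13 without wt 3 and 0.19 with all 6 wt tumours). In 3 of them hom was lower without overlap: Sox9 (-0.52, SE 0.14), a transcription factor of crypt base cells, Ephb3 (-0.50), a receptor that keeps Paneth cells in place, and Ccnd1 (-0.51), cyclin D1. Axin2, the feedback target used most often as a readout, was at 202 to 425 CPM in wt and 303 to 433 CPM in hom (0.24, and 0.48 without wt 3), and Cd44 had -0.16. Apc (0.34, and 0.55 without wt 3) and Ctnnb1 (0.14, and 0.07 with all 6 wt tumours), which encodes beta-catenin, also overlapped. In the destruction complex 13 of 17 were higher (median 0.16, with 0.10 without wt 4 and 0.26 without wt 3), and Axin1 (0.41) gave the smallest p. Axin1, Frat1 and Frat2 passed without wt 3, at edgeR adjusted p-values of 0.0364 to 0.0488. Frat1 (0.93) and Frat2 (0.97, among the 5 smallest p of higher genes), inhibitors of the kinase GSK3, were higher in each hom tumour. With all 6 wt tumours the values of Frat1 and Frat2 were -0.0030 and 0.18, since wt 1 and wt 2 also had high levels. Stem cell genes had 7 higher and 10 lower of 17 (median -0.28), with Lgr5 at -0.30, and with all 6 wt tumours these values were -0.14 and -0.0094. Fetal-like and YAP regeneration genes were split 11 to 8 (median 0.05, and -0.11 without wt 3), although the YAP target Ctgf was higher in each hom tumour (0.91).

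BMP signalling, which opposes Wnt and rises towards the gut surface, had 20 higher and 4 lower estimates among 24 (median 0.33, and 0.20 without wt 4). Its score did not overlap: 0.01, -0.50, -0.28 and -0.26 in wt and 0.10 to 0.43 in hom. The left-out wt 1 and wt 2, at -0.13 and -0.39, also lay below hom. Of the 7 ligands 6 were higher, and 2 did not overlap. Bmp5 was at 2.77, 1.26, 0.770 and 2.31 CPM in wt, and hom spanned 3.01 to 12.7 CPM (1.87, SE 0.49). Bmp3 was at 1.12 to 5.92 CPM in wt and 6.60 to 20.03 CPM in hom (1.82, SE 0.48). Bmp2 (1.10) overlapped through wt 3. These 3 ligands passed without wt 3, at edgeR adjusted p-values of 0.0339 to 0.0407. Estimates were also higher for 5 of 6 tested antagonists, all 3 receptors and 6 of 8 targets. The medians of the receptors (0.14) and of the targets (0.18) were 0.0036 without wt 4 and -0.012 without wt 6.

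**Figure D5:**
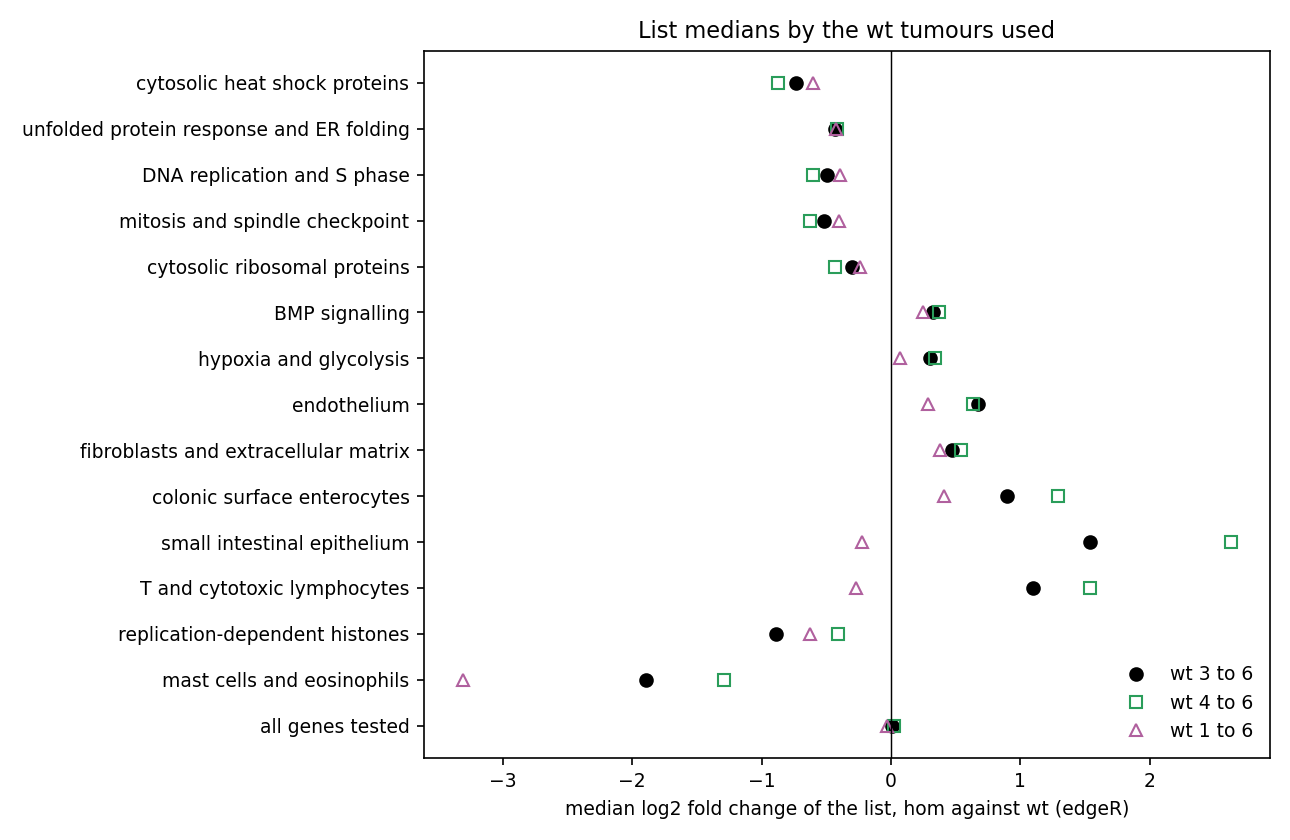
Median log2 fold change of 14 gene lists and of all genes tested, hom against wt, with the 4 kept wt tumours (filled circles), without wt 3 (squares) and with all 6 wt tumours (triangles). The heat shock and ER folding medians lie below 0 for all 3 choices, while those of small intestinal epithelium and T cells are on the other side of 0 with all 6.

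Stromal genes were higher in hom by estimate. Of 28 endothelial genes 25 were higher (median 0.67, 0.42 without hom 6 and 0.29 with all 6 wt tumours), and the score lay between -0.57 and -0.11 in wt and -0.06 and 1.26 in hom. The left-out wt 1 and wt 2 had 0.41 and 0.69, inside the hom range. Tie1, an angiopoietin co-receptor, was at 2.08 to 4.01 CPM in wt and 3.30 to 9.84 CPM in hom (1.02, SE 0.29). The phosphatase gene Ptprb (1.43) and Vwf (1.01), which encodes von Willebrand factor, overlapped likewise, and hom 6 was the highest tumour for all 3. Tie1 had 0.50 and Vwf 0.63 against all 6 wt tumours. Of 51 tested fibroblast and matrix genes 41 were higher (median 0.47, and 0.29 without wt 5), and 7 higher and 2 lower ones did not overlap. Thbs3, a thrombospondin, was at 0.440 to 1.13 CPM in wt and 1.33 to 2.12 CPM in hom (1.24, SE 0.33). Col6a2 (1.25), a collagen VI chain, and Pdgfrb (0.95, and 0.61 with all 6 wt tumours), a receptor of mesenchymal cells, were also higher in every hom tumour, and Dcn (0.54), the matrix proteoglycan decorin, was not. Timp1 (-0.74), a metalloproteinase inhibitor, had a lower estimate. Without wt 3 Col6a2 and Timp1 passed, with edgeR adjusted p-values of 0.0486 and 0.0339. Smooth muscle and pericyte genes (7 higher and 11 lower, median -0.13, and 0.04 without wt 5; Hhip 1.58, and 0.16 with all 6 wt tumours) showed no such lean. Enteric neurons and glia had 9 higher and 4 lower (median 0.22, and 0.01 without wt 5).

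Genes of differentiated colonic epithelium were higher in hom by estimate, most of all against wt 4 and wt 5. Of 25 colonic surface enterocyte genes 23 were higher (median 0.90, 1.29 without wt 3 and 0.41 with all 6 wt tumours), with 2 not overlapping. Guca2a, which encodes guanylin, was at 217.5, 92.6, 41.8 and 230 CPM in wt and 241 to 556 CPM in hom (1.45, SE 0.44), and the water channel gene Aqp4 had 1.28. Zg16, a lectin of goblet cells, was at 252, 62.8, 41.9 and 594 CPM in wt and 724 to 1831 CPM in hom (2.47, SE 0.69). With all 6 wt tumours its log2 fold change was 0.69. Of all 15 goblet cell genes, Zg16 included, 12 were higher with a median of 0.32. This median was -0.02 without wt 5, 0.13 without wt 3 and 0.75 without wt 6. Cdx2, the intestinal identity factor, was at 101, 75.1, 73.2 and 88.5 CPM in wt and 110 to 126 CPM in hom (0.48, SE 0.12), and 13 of 16 epithelium genes were higher (median 0.20, 0.10 without wt 5 and 0.01 with all 6 wt tumours). Cdx2 had 0.26 against all 6 wt tumours. Without wt 3 Guca2a and Cdx2 passed, at edgeR adjusted p-values of 0.0337 to 0.0451. Of 15 enteroendocrine genes 13 were higher (median 0.85), led by Gip (3.14, and 4.64 without wt 3), a hormone of the proximal gut that was at 0 CPM in wt 4; with all 6 wt tumours the median was -0.15 and that of Gip -1.56. Paneth cell genes (3 higher and 8 lower, median -0.07; Defa5 1.02) and tuft cell genes (3 and 5, median -0.13; Dclk1 -1.01) had no common direction, and both medians turned sign with 1 tumour left out (0.12 without wt 4 for Paneth cells and 0.16 without wt 5 for tuft cells).

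Immune cell lists overlapped between the groups. Of 14 tested T and cytotoxic lymphocyte genes 10 were higher (median 1.10; Klrd1, 2.03, which was at 0 CPM in wt 4), of 7 B lymphocyte and plasma cell genes 5 (0.55; Pou2af1, 1.14), and of 23 macrophage genes 19 (0.47; Cd9, -0.39). All 11 genes of dendritic cells and MHC class II were higher (0.83; Zbtb46, 1.18), as were 8 of 10 neutrophil genes (0.40; Retnlg, 2.69). For all of these except neutrophils, wt 4 and wt 5 had the lowest scores of the 10 tumours. Without wt 3 the T cell median was 1.54, and Klrd1 (0.0467) and Cd9 (0.0438) passed by edgeR adjusted p. With 1 other tumour left out the medians ranged from 0.70 (wt 4) to 1.54 (wt 6) for T cells, 0.28 (wt 5) to 1.69 (wt 6) for B cells and 0.24 (wt 5) to 0.79 (wt 6) for macrophages. Those of neutrophils and of dendritic cells and MHC class II became 0.16 without wt 5 and 1.31 without wt 6. With all 6 wt tumours the medians of T and B cells were -0.27 and -0.29, of macrophages 0.15, of neutrophils 0.24 and of dendritic cells and MHC class II 0.40. Of 42 interferon response genes 30 were higher (median 0.26, 0.43 without wt 3 and 0.10 without hom 5), with Bst2 running the other way (-0.78; edgeR adjusted p = 0.0477 without wt 3). Mast cell and eosinophil genes were lower in 12 of 13 cases. Their median was -1.89, -1.29 without wt 3 and -3.31 with all 6 wt tumours. Mcpt4 was at 22.9, 15.5, 20.5 and 1.07 CPM in wt and 0.555 to 5.01 CPM in hom. The mast cell protease Mcpt2 was at 344, 162, 240 and 13.5 CPM in wt and 8.53 to 78.0 CPM in hom. In both, wt 6 fell inside the hom range. The mast cell and eosinophil score was 4.19 in the left-out wt 2. In wt 1 it was -0.36, inside the hom range of -1.94 to 0.49. The 5 tested adipocyte genes were higher (0.61, and 0.28 with all 6 wt tumours; Cidec, 1.31, and -0.43).

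Hypoxia and glycolysis genes had 24 higher and 6 lower estimates of 30 (median 0.30), with 5 not overlapping, and the median was 0.07 with all 6 wt tumours. Ndrg1, a hypoxia-induced gene of differentiating epithelium, had the smallest p of all genes with higher estimates. It was at 176, 130, 173 and 162 CPM in wt and 276.5, 229, 347, 288.5, 282 and 331 CPM in hom 1 to hom 6. The groups were far apart for their spread (0.88, SE 0.15, edgeR adjusted p = 0.118; 0.0337 without wt 3). The left-out wt 1 and wt 2, at 356 and 366 CPM, were higher still, and the log2 fold change against all 6 was 0.33. The growth factor gene Vegfa (0.49) did not overlap, and the glucose transporter gene Slc2a1 (0.54) did; against all 6 they had 0.30 and 0.21. Cholesterol genes were split 15 to 9 (median 0.18, and 0.09 with all 6 wt tumours), with Insig1 (0.36, and 0.17), which holds the sterol sensor in the ER, higher in every hom tumour. Immediate early genes were split 17 to 8 (0.17, and -0.05 with all 6 wt tumours; Klf6, 0.86, and 0.53). Insig1 and Klf6 passed without wt 3, with edgeR adjusted p-values of 0.043 and 0.0451.

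The other genes with the smallest p in each direction had in common that the groups did not overlap and that none passed in edgeR's fit with wt 3 under TMM scaling. DESeq2 called each of them, and with library size alone edgeR called Itpka and Lrig3. Higher in hom were Itpka (2.13, SE 0.37), an inositol trisphosphate kinase, at 0.521 to 1.76 CPM in wt and 3.36 to 7.29 CPM in hom, Lrig3 (1.49, SE 0.26), and the clock gene Per1 (1.55, SE 0.30). Per1 was at 15.8, 8.56, 9.62 and 10.4 CPM in wt and 21.4 to 39.9 CPM in hom. Lower were Morc4 (-1.17, SE 0.21), a nuclear ATPase, at 33.3 to 65.2 CPM in wt and 15.7 to 26.2 CPM in hom, and Ncbp2 (-0.87, SE 0.17), which binds the cap of new transcripts. Tnip3 (-1.32, SE 0.26), an inhibitor of NF-kappaB signalling, and Lman2l (-0.92, SE 0.18), a cargo lectin of the secretory pathway, completed the set. For these 7 the edgeR adjusted p was 0.118 to 0.122, and 0.0337 to 0.0339 without wt 3. Itpka had 0.72 and Per1 0.94 against all 6 wt tumours. Morc4 also lay above hom in wt 1 and wt 2 (28.45 and 30.6 CPM), and Per1 did not (27.9 and 25.1 CPM, inside the hom range).

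Spp1, which encodes the matrix protein osteopontin, was at 56.8, 45.6, 78.4 and 46.05 CPM in wt and 33.4, 40.5, 14.8, 20.3, 24.5 and 18.1 CPM in hom 1 to hom 6. The groups did not overlap, and wt 1 and wt 2, at 57.9 and 66.4 CPM, also lay above hom. The log2 fold change was -1.15 (SE 0.25, edgeR adjusted p = 0.122; 0.0364 without wt 3), and it was -1.24 with all 6 wt tumours. The fold change of Spp1 therefore depended little on which wt tumours were used.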

How the data were processed

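The authors deposited whole-number read counts for 24062 genes in 18 libraries. They also deposited RPKM values scaled by TMM, which entered no test. Per the labels' protocols RNA from resected tumours went through a stranded total RNA kit, while the molecule label names polyA RNA. The submitters' processing notes name mm10, TopHat, Trimmomatic and Subread 1.4.5-p1, the package of featureCounts. No strand setting is stated there, so overlapping genes are uncertain.

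Counts were fitted with edgeR 4.0.16 (R 4.3.3) to 15 tumours: the 6 hom and 4 wt tumours and 5 ApcMin/+/Macrod2-/+ (het) tumours of the large intestine, which only share the estimate of spread. After filterByExpr and TMM scaling, a robust quasi-likelihood test was adjusted by Benjamini-Hochberg over all 14392 genes, with a threshold of 0.05. Alternatives used DESeq2 1.42.0, limma 3.58.1, other scalings and filters, offsets for gene length and GC content, and left-out tumours. P-values measure the spread between these tumours. On simulated counts of 14392 genes the fit recovered 22.4% of 67 changes of 1.5-fold and 56.7% of 67 changes of 2-fold. It recovered 93.9% of 66 changes of 4-fold, with 9 false calls. Genes were drawn independently there. A gene that was not called can therefore still differ. No 2 libraries of a group were repeats of each other (lowest chi-square per degree of freedom 27.3).

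The members and gene lists were chosen with earlier results of these data known. Named genes were, per direction, up to 12 of smallest p among those that passed (5, as values, where fewer than 5 did). Only these had to have a mean log2 CPM of at least 0 and no predicted name. Added to them were 12 fixed genes, and from each of 46 lists up to 3 members per direction that passed or the one of smallest p. The list genes Klrd1 and Zbtb46 lay under 1 CPM in every compared tumour. All other genes, and 2 lists, were chosen after their values were seen; these include most of the heat shock, ER folding and repair genes. Some genes that the rule names are not reported here. Promoters are from RefSeq, GRCm38.p6.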

Additional observations from a re-analysis of the deposited data

Results flagged for a closer look

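In 32 of 344 groups of values (9.3%) the highest or lowest tumour stood apart from the rest of its group by Dixon's test. For independent, normally distributed values chance gives about 1 in 20. The groups here share tumours, many genes were chosen after their values were seen, and CPM values need not be normal. The share is therefore a description and was not tested against that rate. Of the 32, 9 were in wt 3, 8 in hom 3, 6 in hom 6, 3 each in wt 4 and hom 2, and 1 each in wt 5, hom 1 and hom 4.

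Several in wt 3 were RNAs without a polyA tail: Rn45s at 348600 CPM, Rpph1 at 290.1 CPM and Hist1h3d at 3.605 CPM. The score of other RNAs without a polyA tail, at 5.278, was flagged too. So was the share of Rn45s before TMM scaling, 26.99% of the counts of wt 3. The TMM factor of wt 3 was 0.774, so its scaled levels exceed its plain CPM. In the same tumour Nr1d1 (39.66 CPM), Pmaip1 (53.06 CPM) and Gip (2.219 CPM) were above the other wt tumours, and Bst2 (10.72 CPM) was below them. In wt 4 the heat shock genes Hspa1a (60.29 CPM), Dnaja1 (289.5 CPM) and Hspa8 (3668 CPM) were high. In wt 5 the neutrophil score was low, at -0.9955.

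Among the hom tumours, hom 3 was high for Axin1 (105.9 CPM), Axin2 (433.4 CPM) and Chac1 (8.399 CPM). It was low for Calr (681.6 CPM), Creld2 (37.19 CPM) and the scores of goblet cells (-0.04605), stem cell genes (-0.4209) and homologous recombination and Fanconi anaemia genes (-0.8045). In hom 6 the stromal and vascular genes Col6a2 (85.17 CPM), Hhip (2.069 CPM), Ptprb (23.71 CPM) and Vwf (28.76 CPM) were high, as were Tsc22d3 (56.46 CPM) and the BMP score (0.4295). In hom 2 Pttg1 (40.83 CPM) and Rpl31 (64.08 CPM) were high and the destruction complex score was low (-0.1629). Nbn was high in hom 1 (25.96 CPM) and Trp53bp1 in hom 4 (50.1 CPM).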

How the results depend on the processing

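The number of genes called was 1 with wt 3 in the fit under most of 25 alternatives. It was 782 with DESeq2, 4 with library size alone, 0 with the replicate block, and 1 to 1282 with 1 tumour left out (1282 without wt 3, 4 without wt 6). Further alternatives of the fit without wt 3 were chosen after seeing the data. In them the count of 1282 became 3072 with DESeq2, 804 with limma-voom, 1 with wt 1 and wt 2 kept and 0 with the replicate block. It ran from 1 to 3400 when a further tumour was left out. The Macrod2 level had a log2 fold change of -4.30 with the replicate block (edgeR adjusted p = 0.0659), and -4.83 to -4.11 with 1 tumour left out. The numbers share no stated origin, and deviations of same-numbered tumours correlated at 0.02, 0.06, -0.19 and 0.17, so they were not taken as pairs. The difference in chromosome imbalance ran from -0.00059 (without wt 6) to 0.0133 (without wt 4). With all 6 wt tumours the sign turned for Cidec (-0.43), Fabp1 (-2.52), Frat1 (-0.0030), Gip (-1.56) and Tsc22d3 (-0.021). Of 3014 comparisons of 121 named genes with their alternatives, 2867 kept direction and side of the threshold, 142 passed it (74 with DESeq2, 65 without wt 3) and 5 turned sign. None of the 121 genes had passed in the main fit, so none could fall below the threshold, and a smaller estimate still counted as kept. Anxa13, at 2.09 and at 0.48 with all 6 wt tumours, is such a case. Of 611 comparisons of list medians 25 moved by over 1 SD, here the mean of the SDs of the list score within hom and within wt. That SD can exceed the median itself, so medians that shrank towards 0 or turned sign could count as unmoved. The goblet cell median, 0.32 and -0.02 without wt 5, is such a case (score SD 0.17 in hom and 0.93 in wt). Genes near 1 CPM, such as Thbs3 and Retnlg, rest on few reads.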

Other observations

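Genes of the circadian clock and of the glucocorticoid response were listed after their values were seen and are given as values only. Of 19 tested clock and output genes 17 had higher estimates in hom (median log2 fold change 0.49), and all 12 core genes were among them. With all 6 wt tumours the median was 0.18. Nr1d1, a repressor of the clock, was at 39.7 CPM in wt 3, 9.54 to 12.4 CPM in the other wt tumours and 22.9 to 42.7 CPM in hom. The hour at which the tumours were taken is not given in the sources used here.

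Of 16 glucocorticoid response genes 13 were higher (median 1.04, and 0.48 with all 6 wt tumours). The score was -0.77 to -0.13 in wt and -0.05 to 0.83 in hom, while the left-out wt 1 and wt 2 had 0.385 and 0.13. Sgk1, a kinase that raises sodium uptake, was at 75.0, 6.03, 16.1 and 20.2 CPM in wt and 48.4 to 328.5 CPM in hom. Fkbp5, a co-chaperone of the receptor, was at 21.7 to 31.5 CPM in wt and 27.65 to 144 CPM in hom. Tsc22d3 had a log2 fold change of 1.21, and Cited2, a transcriptional coregulator, 1.11 with no overlap between the groups.

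Cirbp, a cold-inducible RNA-binding protein, was at 59.7, 31.2, 41.8 and 36.4 CPM in wt and 53.6 to 200 CPM in hom (1.43). The splicing genes Tra2a (-1.10) and Hnrnph3 (-0.91) were lower in every hom tumour. Anxa13, an annexin of enterocytes, was at 37.0 to 132 CPM in wt and 134 to 516 CPM in hom (2.09), and 0.48 against all 6 wt tumours. None of these genes passed in edgeR's fit with wt 3. Without it all of them except Fkbp5 did, at edgeR adjusted p-values of 0.0337 to 0.0428, and with library size alone Cited2 passed.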
